A study of Mus musculus with 6 samples.

Results

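The genes described here encode the unfolded protein response and the amino acid stress response of bone-marrow-derived myeloid-derived suppressor cells (MDSCs), immature myeloid cells that restrain T cells. They were chosen by symbol from a list of 46 genes, and 45 of these were tested in the authors' deposited table, out of 24312 rows, 11079 of them tested. The groups were Pim1 knockout cells (3 libraries, genotype Pim1-/-) and wild-type cells (3 libraries, genotype WT), all labelled C57BL/6 and CD11b+ Gr1+ and described as biological replicates. Libraries were made by Smart-seq2, which yields full-length cDNA from polyadenylated RNA. In both groups femur marrow was cultured for 7 days, with 40 ng/mL of GM-CSF and 40 ng/mL of IL-6 in the medium. Neither the age nor the number of the mice is given in the labels. Pim1 encodes a serine/threonine kinase induced by cytokines. The table gives 1 pooled FPKM value (expression scaled for transcript length and library size) per gene and genotype, so the spread between libraries, and whether libraries of the groups overlap, cannot be shown.

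Cells meet misfolded protein in the endoplasmic reticulum (ER) with 3 membrane sensors, PERK (Eif2ak3), IRE1 (Ern1) and ATF6, which raise chaperones, folding enzymes and the machinery that removes misfolded protein. PERK also phosphorylates the initiation factor eIF2alpha, as do related kinases that sense amino acid shortage, double-stranded RNA or haem deficiency. That slows general translation but favours translation of ATF4, a transcription factor that raises amino acid synthesis enzymes, transporters and tRNA synthetases. Because ATF4 is controlled largely at translation and XBP1 by splicing of its RNA, gene-level RNA values do not report the activity of either factor. Myeloid cells that secrete granule proteins and cytokines pass much protein through the ER.

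Promoters are shown first because the stress elements known for each branch were searched in them. RefSeq windows of 300 bases on GRCm38.p6, from 250 before to 50 after the start site, were found for 39 of the 46 genes. No window was used for Atf6, Hyou1, Manf, Nars, Cars, Wars and Cth. The Asns window (chr6:7693160-7693459, minus strand) is printed as the example of an amino acid response gene, with the ATF4 and C/EBP composite element in capitals.
Asns: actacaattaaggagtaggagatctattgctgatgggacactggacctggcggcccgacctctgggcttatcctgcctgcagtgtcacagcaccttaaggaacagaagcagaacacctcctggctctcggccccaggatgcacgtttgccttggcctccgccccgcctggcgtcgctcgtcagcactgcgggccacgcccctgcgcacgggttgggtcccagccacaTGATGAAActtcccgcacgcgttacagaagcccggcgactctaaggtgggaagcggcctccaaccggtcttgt
The Hspa5 window (chr2:34771840-34772139, plus strand) is printed as the example of an ER chaperone gene, with the XBP1 and ATF6 core element and then the ER stress element in capitals.
Hspa5: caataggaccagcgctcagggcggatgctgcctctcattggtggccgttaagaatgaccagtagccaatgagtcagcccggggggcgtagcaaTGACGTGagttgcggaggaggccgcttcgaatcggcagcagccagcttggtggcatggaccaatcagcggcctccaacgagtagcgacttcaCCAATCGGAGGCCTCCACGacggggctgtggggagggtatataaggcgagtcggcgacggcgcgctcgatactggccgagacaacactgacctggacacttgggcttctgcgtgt

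Motifs were searched on both strands. The composite element was TGATGNAA, the ER stress element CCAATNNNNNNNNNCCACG, the ER stress element II ATTGGNCCACG and the core element of XBP1 and ATF6 TGACGTG. The composite element was found in 8 of 16 ATF4 target genes with a window, in 1 of 15 ER folding and degradation genes and in 0 of 8 sensor, transcription factor and Ppp1r15a genes, against 245 of 8447 tested genes with a window (2.90%). An ER stress element, I or II, was found in 9 of the 15 ER genes and in 0 of the 16 ATF4 targets, against 20 of the 8447 genes. The core element of XBP1 and ATF6 was found in 1 of the 39 members, Hspa5, against 281 of the 8447 genes (3.33%). Of all windows in the reference, 3.97% held the composite element, 0.119% the ER stress element, 0.0365% the element II and 2.01% the core element. A match is a description of letters in the window and says nothing about binding of a factor, and no match says only that the letters are not in this window. The elements searched are those known for these branches, so higher shares than over all tested genes test nothing.

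**Figure D1:**
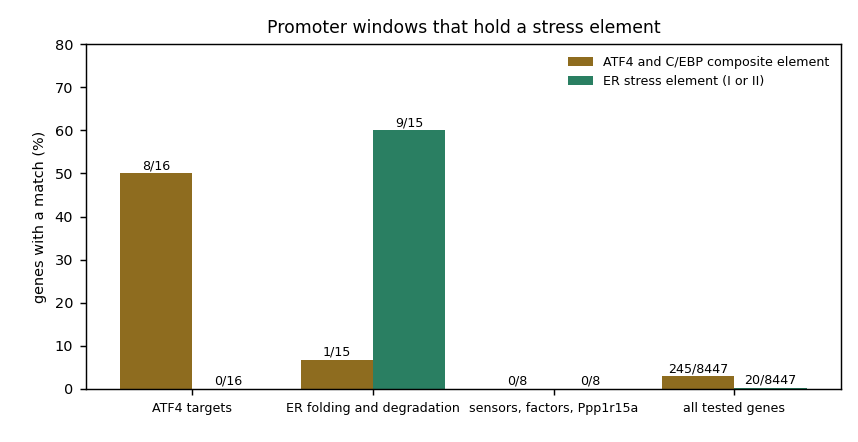
Share of genes whose promoter window holds the ATF4 and C/EBP composite element (brown) or an ER stress element I or II (green), in percent, with counts above the bars. The composite element lies in 8 of 16 ATF4 targets and the ER stress elements in 9 of 15 ER folding and degradation genes. The elements searched are those known for these branches, so the shares are a description only.

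The composite elements are aligned here, read along the motif with its fixed letters in capitals and 4 flanking bases on each side. The capitals are alike by construction of the search, so only the variable base and the flanking bases can differ.
Asns: cacaTGATGaAActtc
Trib3: cggcTGATGtAAacct
Tars: cagcTGATGcAAcggg
Chac1: ggagTGATGcAAcggc
Yars: cagcTGATGcAAcccg
Gars: tgcaTGATGaAAtagc
Iars: gaggTGATGcAAtact
Aars: cggcTGATGcAAtgct
Herpud1: gggcTGATGcAAcccg
Of the genes called in Pim1 knockout, the Asns element lay at chr6:7693225-7693232 (-), that of Trib3 at chr2:152344039-152344046 (+) and that of Tars at chr15:11399666-11399673 (+). Aars held a further match at chr8:111033851-111033858 (-). Herpud1 was the ER gene with a composite element, and it also held the ER stress element II.

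The ER stress elements are aligned in the same way, with the spacer of the motif in lower case.
Creld2: tggaCCAATtgaggctcgCCACGagaa
Hspa5: ttcaCCAATcggaggcctCCACGacgg
Pdia6: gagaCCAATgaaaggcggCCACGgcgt
Syvn1: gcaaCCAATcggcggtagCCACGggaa
Dnajc3: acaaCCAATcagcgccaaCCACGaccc
Canx: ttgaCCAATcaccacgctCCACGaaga
Calr: tgggCCAATgagggtcgaCCACGcgtt
Hsp90b1: aagcCCAATcgcaaggagCCACGcttc
The Creld2 element lay at chr15:88819520-88819538 (-) and that of Hspa5 at chr2:34772025-34772043 (+), and Hsp90b1 held a further match at chr10:86705533-86705551 (+). Calls were found among genes with and without an element. Over all 8447 tested genes with a window 6.63% were higher and 6.64% lower. Of the 8 ATF4 targets with a composite element 3 were higher in Pim1 knockout (median log2 fold change 0.38), and of the 8 without 4 were higher (median 0.39). Of the 9 ER genes with an ER stress element 1 was higher (median 0.18), and of the 6 without 1 was higher (median 0.14). Over all 20 tested genes with an ER stress element 1, Creld2, was higher (5%) and 0 lower, near the share over all genes with a window. Of the 11 outside the list the nearest to a call was Dnajb11, an ER cochaperone, at 74.7 FPKM in Pim1 knockout and 59.1 FPKM in wild type (adjusted p = 0.0792 per the authors' deposited table).

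Several facts of the whole comparison stand beside the results. Pim1 was at 22.7 FPKM in Pim1 knockout and 90.2 FPKM in wild type (adjusted p = 0.000831 per the authors' deposited table, its smallest). The Y-linked genes Ddx3y (0.0103 FPKM in Pim1 knockout, 2.56 FPKM in wild type) and Eif2s3y (0.0191 FPKM in Pim1 knockout, 6.79 FPKM in wild type) were near 0 in Pim1 knockout without being called (adjusted p = 0.385 and 0.537 per the authors' deposited table), and Kdm5d and Uty were listed at 0 there. Xist, transcribed from the inactive X of female cells, was at 7.21 FPKM in Pim1 knockout and 5.21 FPKM in wild type (adjusted p = 0.0262 per the authors' deposited table), and 1 other row shares its locus. The sex of the mice is not given in the labels, and a difference in sex makeup and loss of Pim1 cannot be told apart. Eif2s3y encodes a copy of the eIF2 gamma subunit, and its X-linked counterpart Eif2s3x was at 32.5 FPKM in Pim1 knockout and 29.5 FPKM in wild type (adjusted p = 0.602 per the authors' deposited table). No member lies on chromosome 17, which carries Pim1. In the check of the label, Itgam (CD11b) was at 151.8 FPKM in Pim1 knockout and 138.8 FPKM in wild type, and the Gr1 antigen gene Ly6c2 at 997 FPKM in Pim1 knockout and 392 FPKM in wild type, and Ly6g was not analysed here.

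Marker lists of other cells and states differed as well. Their counts stand beside 6.79% higher and 6.73% lower over all tested genes (12% and 12.1% at an unadjusted p under 0.05). Of 11 tested mature neutrophil markers 8 were higher and 0 lower in Pim1 knockout. At an unadjusted p under 0.05 in the authors' deposited table the counts were also 8 higher and 0 lower. The markers' summed level was 9426 FPKM in Pim1 knockout and 2525 FPKM in wild type. Most of it was S100a8 (6257 FPKM in Pim1 knockout, 1308 FPKM in wild type) and S100a9 (2029 FPKM in Pim1 knockout, 369 FPKM in wild type). Retnlg, Mmp8 and Cxcr2 were not called. Of 12 interferon response genes 12 were higher (summed 447 FPKM in Pim1 knockout and 82.2 FPKM in wild type), and of 10 immediate early genes 7 were lower (summed 818 FPKM in Pim1 knockout and 1270.1 FPKM in wild type). Of 10 monocyte markers 5 were higher and 2 lower (summed 1741 FPKM in Pim1 knockout and 1212 FPKM in wild type), and of 9 macrophage markers 0 were called (summed 5705 FPKM in Pim1 knockout and 4976 FPKM in wild type, with 2 higher and 1 lower at an unadjusted p under 0.05). Of 5 tested dendritic cell markers 1 was higher and 2 were lower (summed 507 FPKM in Pim1 knockout and 947 FPKM in wild type). B and plasma cell markers, listed because plasma cells have a strong unfolded protein response, had 3 of 5 tested genes lower (summed 35.2 FPKM in Pim1 knockout and 167 FPKM in wild type), with Ms4a1 and Pax5 at 0 in both genotypes. Most of that sum was Sdc1, at 23.5 FPKM in Pim1 knockout and 149.9 FPKM in wild type. The other lower genes were Prdm1 and Irf4. Cd79b was above 0 without being called (1.27 FPKM in Pim1 knockout, 0.968 FPKM in wild type). Mzb1 (0.0244 FPKM in Pim1 knockout, 0 in wild type) and Tnfrsf17 (0.0499 FPKM in Pim1 knockout, 0.111 FPKM in wild type) were near 0 and not tested by the authors. Of 3 tested plasmacytoid dendritic cell markers 1 was higher and 0 lower. It was Bst2, at 647 FPKM in Pim1 knockout and 245 FPKM in wild type, while Tcf4 was not called. Siglech, Ccr9, Ly6d and Klk1 of that list were near 0 and not tested by the authors. Of 3 tested mast cell and basophil markers 1 was higher and 1 lower. No T, NK or erythroid marker was tested by the authors. The part of these differences in the results was not tested, and fewer cells of a type and less RNA per cell cannot be told apart in such pooled RNA.

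Asns, Aldh18a1, Psat1 and Mthfd2, of amino acid and one-carbon synthesis, and the ER chaperones and cofactors Sdf2l1, Creld2 and Hyou1 were among the genes higher in Pim1 knockout, by less than 2-fold, while the sensors and most major chaperones were not called. Of the 45 tested members 10 were higher and 1 lower at an adjusted p under 0.05 in the authors' deposited table. Over all tested genes 6.79% were higher and 6.73% lower, and of the members 22.2% were higher and 2.22% lower. Since the list was chosen with earlier results of these data known, these shares describe the list and cannot measure an enrichment. The members' median log2 fold change was 0.18, against 0.01 over all tested genes. A fold change above 0 was seen in 33 of 45 members (52.1% of all tested genes). With both genotypes scaled to the same sum it was seen in 37, where Xbp1, Hsp90b1, Sel1l and Wars changed sign. That scaling shifts every gene upward by 0.07 on the log2 scale, and the share over all tested genes was not computed for it. None of the 11 calls held when the deposited test statistic was taken as a standard normal value. Taken so, 0 members were higher and 0 lower, against 1.84% and 1.46% of all tested genes. At an adjusted p under 0.01, 6 members were higher and 0 lower (4.65% and 4.13% of all tested genes). At an unadjusted p under 0.05, 16 members were higher and 1 lower (12% and 12.1% of all tested genes). Among genes with a mean of at least 10 FPKM, adjusted again, 5 members were higher and 0 lower (7.16% and 7.46% of those 4890 genes).

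The ATF4 targets were Trib3, Sesn2, Chac1, the listed enzymes of amino acid and one-carbon synthesis and the listed tRNA synthetases. Kept out of both branches were the sensors, Ppp1r15a (log2 fold change -0.30) and the transcription factors (0 of 5 higher, 1 lower). The counts depend on this grouping, which left Cebpg (log2 fold change -0.55), the 1 member called lower, out of the ATF4 targets. A separate list of other ATF4 targets and partners had 2 higher and 2 lower of 19 tested, with a median log2 fold change of -0.03. Of 19 tested ATF4 targets 7 were higher and 0 lower (9 and 0 at an unadjusted p under 0.05), with a median log2 fold change of 0.33. Of 17 ER folding and degradation genes 3 were higher and 0 lower (7 and 0 at an unadjusted p under 0.05), with a median of 0.17. Over all tested genes 6.79% were higher and 6.73% lower (12% and 12.1% at an unadjusted p under 0.05). With only genes of a mean of at least 10 FPKM the medians were 0.18 for the ATF4 targets and 0.16 for the ER genes, and at a pseudocount of 5 they were 0.17 and 0.15. By level, the 7 ATF4 targets with a mean under 10 FPKM had a median of 0.65 and the 11 with a mean of 10 to 50 FPKM one of 0.19. The difference between the branches was not tested, since values per library were not used here. The levels of the branches also differed: the ER genes had a median of 69.8 FPKM in Pim1 knockout and 67.3 FPKM in wild type, and the ATF4 targets one of 15.3 FPKM in Pim1 knockout and 13.5 FPKM in wild type. Summed over genes, the ER branch was at 2106 FPKM in Pim1 knockout and 1858 FPKM in wild type, and the ATF4 targets were at 356 FPKM in Pim1 knockout and 299 FPKM in wild type.

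**Figure D2:**
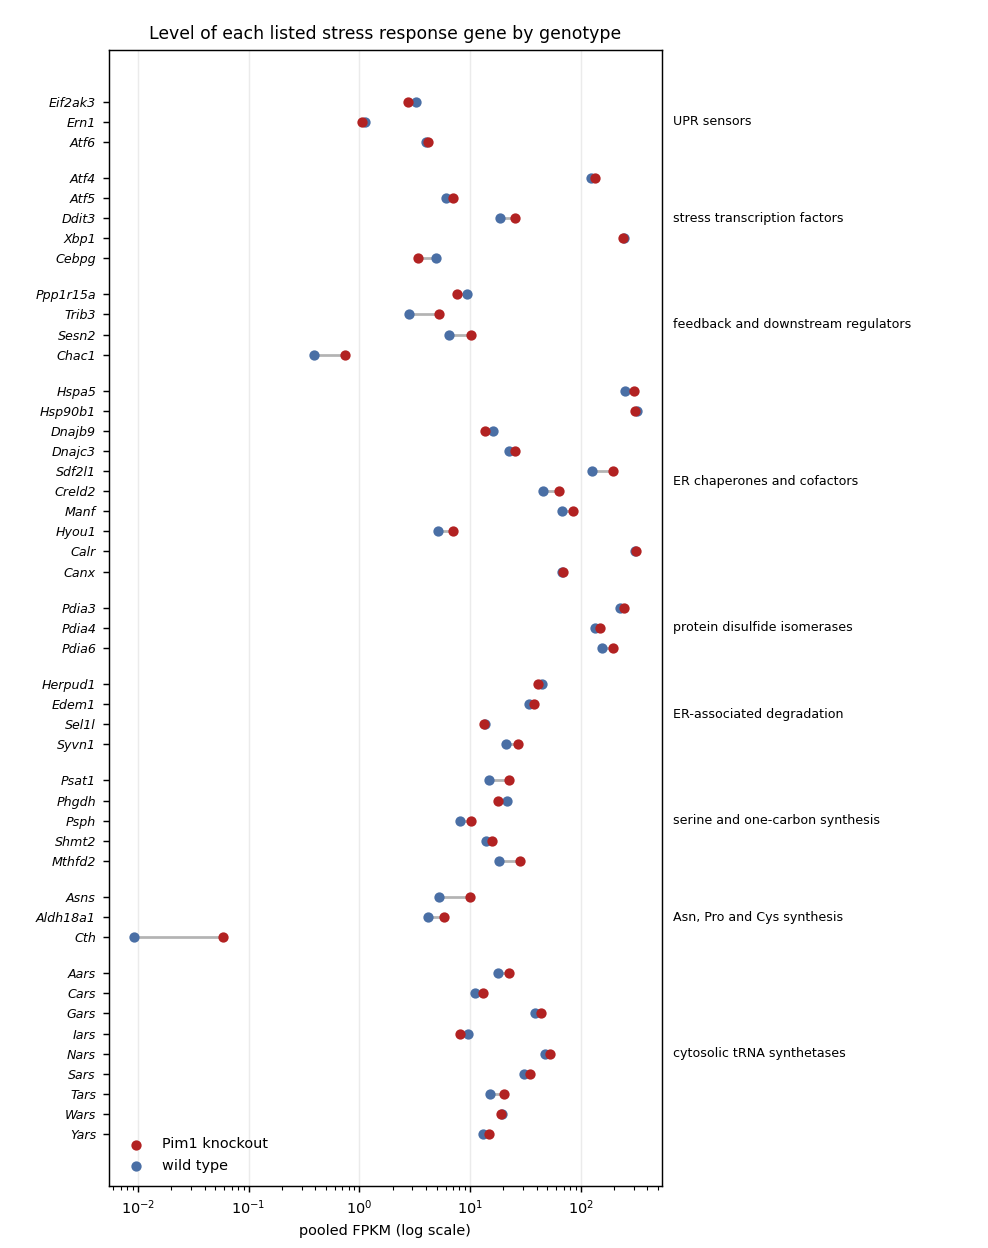
Pooled FPKM (log scale) of the 46 listed genes in Pim1 knockout (red) and wild type (blue), grouped by role, 1 point per gene and genotype. Levels run from Cth, under 0.1 FPKM in both genotypes, to Calr and Hsp90b1 above 300 FPKM, and most pairs of points lie close together.

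The sensors were low and were not called. Eif2ak3 (PERK) was at 2.74 FPKM in Pim1 knockout and 3.23 FPKM in wild type (adjusted p = 0.450 per the authors' deposited table). Ern1 (IRE1), the nuclease that splices Xbp1 RNA, was at 1.06 FPKM in Pim1 knockout and 1.13 FPKM in wild type (adjusted p = 0.876 per the authors' deposited table). Atf6, released from the membrane by cleavage, was at 4.13 FPKM in Pim1 knockout and 4.01 FPKM in wild type (adjusted p = 0.917 per the authors' deposited table). Of the 3 sensors 0 had an unadjusted p under 0.05, and their errors on the log2 scale lay between 0.27 and 0.41.

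Among the transcription factors, Cebpg was the member that fell. Cebpg, a C/EBP protein that pairs with ATF4, was at 3.36 FPKM in Pim1 knockout and 4.92 FPKM in wild type, with a log2 fold change of -0.55 (error 0.29, adjusted p = 0.0148 per the authors' deposited table). Atf4 RNA was abundant, at 133.9 FPKM in Pim1 knockout and 123.4 FPKM in wild type (log2 fold change 0.12, error 0.23, adjusted p = 0.675 per the authors' deposited table). Xbp1 was at 241 FPKM in Pim1 knockout and 247 FPKM in wild type (adjusted p = 0.925 per the authors' deposited table), and its spliced form cannot be seen at gene level. Thus Atf4 and Xbp1, the most abundant regulators of the list, differed by less than their errors. Ddit3, the apoptosis-linked factor CHOP, was at 25.5 FPKM in Pim1 knockout and 18.8 FPKM in wild type (log2 fold change 0.44, error 0.57, adjusted p = 0.454 per the authors' deposited table). Atf5, translated under stress like ATF4, was at 7.07 FPKM in Pim1 knockout and 6.12 FPKM in wild type (log2 fold change 0.21, error 1.05, adjusted p = 0.908 per the authors' deposited table). The rows of Ddit3 and Atf5 share their locus with other genes, Ddit3 with Mars and Atf5 with Nup62, Il4i1 and Tbc1d17, so reads may have been divided between them.

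Of 4 feedback and downstream regulators 2 were higher and 0 lower, against 6.79% and 6.73% of all tested genes. At an unadjusted p under 0.05, 3 were higher and 0 lower, against 12% and 12.1%. Trib3, a pseudokinase that restrains ATF4 and AKT, rose to 5.29 FPKM in Pim1 knockout, against 2.81 FPKM in wild type (1.88-fold, log2 fold change 0.91, error 0.35, adjusted p = 0.000831 per the authors' deposited table). Sesn2, a leucine-binding inhibitor of mTORC1, rose to 10.1 FPKM in Pim1 knockout, against 6.46 FPKM in wild type (1.57-fold, log2 fold change 0.65, error 0.28, adjusted p = 0.000831 per the authors' deposited table). Both are known targets of ATF4. Chac1, which degrades glutathione, was low, at percentile 3.07 of tested genes by level, with 0.744 FPKM in Pim1 knockout and 0.386 FPKM in wild type (1.93-fold, error 0.73, adjusted p = 0.139 per the authors' deposited table). Ppp1r15a (GADD34), which directs dephosphorylation of eIF2alpha, was at 7.69 FPKM in Pim1 knockout and 9.45 FPKM in wild type, with a wide error of 0.89 and 3 other rows at its locus (adjusted p = 0.815 per the authors' deposited table).

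Both tested enzymes of asparagine and proline synthesis rose. Of 5 enzymes of serine and one-carbon synthesis 2 rose and 0 fell, against 6.79% and 6.73% of all tested genes. At an unadjusted p under 0.05, 2 were higher and 0 lower, against 12% and 12.1%. Asns, which makes asparagine, rose to 10.0 FPKM in Pim1 knockout, against 5.24 FPKM in wild type (1.91-fold, log2 fold change 0.93, error 0.31, adjusted p = 0.000831 per the authors' deposited table). Aldh18a1, the enzyme that opens proline synthesis, rose to 5.77 FPKM in Pim1 knockout, against 4.20 FPKM in wild type (1.37-fold, error 0.29, adjusted p = 0.0461 per the authors' deposited table). Cth, which makes cysteine, was not tested by the authors, at 0.0583 FPKM in Pim1 knockout and 0.00916 FPKM in wild type. In the serine pathway the enzymes differed among themselves. Psat1, the aminotransferase of the middle step, rose to 22.3 FPKM in Pim1 knockout, against 14.7 FPKM in wild type (1.52-fold, log2 fold change 0.60, error 0.26, adjusted p = 0.000831 per the authors' deposited table). Phgdh, the dehydrogenase of the entry step, was at 18.1 FPKM in Pim1 knockout and 21.6 FPKM in wild type (log2 fold change -0.26, error 0.26, adjusted p = 0.296 per the authors' deposited table). Psph, the phosphatase of the last step, was at 10.1 FPKM in Pim1 knockout and 8.08 FPKM in wild type (adjusted p = 0.262 per the authors' deposited table). Of this pathway Psat1 was thus called, while Phgdh had a fold change below 0. In the mitochondrial one-carbon steps fed by serine, Mthfd2 rose to 28.2 FPKM in Pim1 knockout, against 18.1 FPKM in wild type (1.56-fold, log2 fold change 0.64, error 0.25, adjusted p = 0.000831 per the authors' deposited table). Shmt2, which splits serine to glycine, was at 15.7 FPKM in Pim1 knockout and 14.0 FPKM in wild type (adjusted p = 0.573 per the authors' deposited table).

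The tRNA synthetases of the list, which charge tRNAs with amino acids, were mostly not called. Of 9 tested, 1 was higher (11.1%) and 0 lower, against 6.79% and 6.73% of all tested genes. At an unadjusted p under 0.05, 2 were higher and 0 lower, against 12% and 12.1%. A fold change above 0 was seen in 7 of the 9 (52.1% of all tested genes), and their median log2 fold change was 0.18. Tars, for threonine, rose to 20.4 FPKM in Pim1 knockout, against 15.2 FPKM in wild type (1.34-fold, log2 fold change 0.43, error 0.25, adjusted p = 0.0366 per the authors' deposited table). Aars, for alanine, was at 22.4 FPKM in Pim1 knockout and 17.8 FPKM in wild type (adjusted p = 0.0939 per the authors' deposited table). Nars, for asparagine, was the most abundant at 53.1 FPKM in Pim1 knockout and 47.9 FPKM in wild type (adjusted p = 0.569 per the authors' deposited table). The members below 0 were Iars, for isoleucine, at 8.03 FPKM in Pim1 knockout and 9.49 FPKM in wild type, and Wars, for tryptophan, at 19.2 FPKM in Pim1 knockout and 19.6 FPKM in wild type (adjusted p = 0.334 and 0.943 per the authors' deposited table). Wars is also interferon-induced in human cells, and it was not called here beside 12 of 12 interferon response genes higher. Cars, Gars, Sars and Yars had log2 fold changes of 0.24, 0.17, 0.18 and 0.19.

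**Figure D3:**
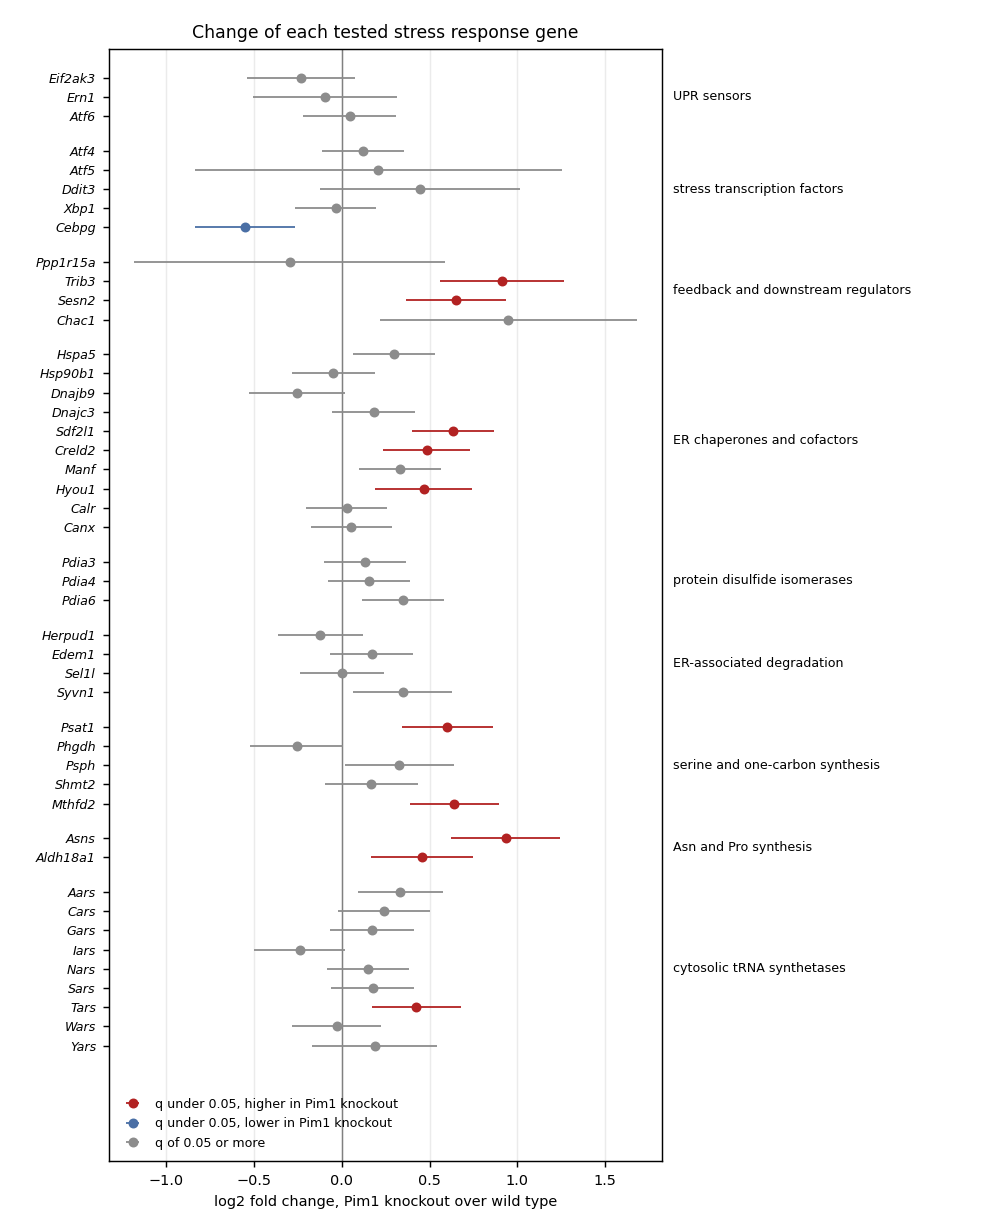
Log2 fold change, Pim1 knockout over wild type, of the 45 tested members by role, with the error derived from the deposited test statistic as a bar to each side. Red points are higher and the blue point, Cebpg, is lower at an adjusted p under 0.05, and the widest bars belong to Atf5, Ppp1r15a and Chac1.

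Of 10 ER chaperones and cofactors 3 were higher and 0 lower, against 6.79% and 6.73% of all tested genes. At an unadjusted p under 0.05, 5 were higher and 0 lower, against 12% and 12.1%. The median log2 fold change of the 10 genes was 0.24. Sdf2l1, a chaperone cofactor of the ER, rose to 195.8 FPKM in Pim1 knockout, against 126.1 FPKM in wild type (1.55-fold, log2 fold change 0.64, error 0.23, adjusted p = 0.000831 per the authors' deposited table). Creld2, an ER-resident protein induced by ER stress, rose to 63.8 FPKM in Pim1 knockout, against 45.6 FPKM in wild type (1.40-fold, error 0.25, adjusted p = 0.0123 per the authors' deposited table). Hyou1, the large chaperone that exchanges nucleotide on BiP, rose to 7.04 FPKM in Pim1 knockout, against 5.10 FPKM in wild type (1.38-fold, error 0.28, adjusted p = 0.0291 per the authors' deposited table). These were the called chaperone genes. Hspa5 (BiP), the main ER Hsp70, was at 305 FPKM in Pim1 knockout and 248 FPKM in wild type (log2 fold change 0.30, error 0.23, adjusted p = 0.137 per the authors' deposited table). Manf, a secreted partner of BiP, was at 85.5 FPKM in Pim1 knockout and 68.1 FPKM in wild type (adjusted p = 0.0902 per the authors' deposited table). Hsp90b1 (GRP94) was at 310.2 FPKM in Pim1 knockout and 320.9 FPKM in wild type (adjusted p = 0.892 per the authors' deposited table). The lectin chaperones Calr (316 FPKM in Pim1 knockout, 311 FPKM in wild type) and Canx (69.8 FPKM in Pim1 knockout, 67.3 FPKM in wild type) had log2 fold changes of 0.03 and 0.05. The BiP cochaperones also were not called, Dnajc3 at 25.6 FPKM in Pim1 knockout and 22.6 FPKM in wild type, and Dnajb9, a classical XBP1 target, at 13.6 FPKM in Pim1 knockout and 16.2 FPKM in wild type (adjusted p = 0.452 and 0.332 per the authors' deposited table).

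Disulfide isomerases and degradation genes were not called. Pdia6 came nearest, at 197 FPKM in Pim1 knockout and 155 FPKM in wild type (log2 fold change 0.35, error 0.23, adjusted p = 0.0671 per the authors' deposited table). The row of Pdia6 shares its locus with Atp6v1c2. Pdia4 was at 148 FPKM in Pim1 knockout and 133 FPKM in wild type, and Pdia3, which folds glycoproteins and class I molecules, at 247 FPKM in Pim1 knockout and 226 FPKM in wild type (adjusted p = 0.535 and 0.632 per the authors' deposited table). Of these 3 isomerases 1 had an unadjusted p under 0.05. In ER-associated degradation, which exports misfolded protein to the proteasome, the ubiquitin ligase Syvn1 (HRD1) was at 27.0 FPKM in Pim1 knockout and 21.2 FPKM in wild type (adjusted p = 0.166 per the authors' deposited table), with 2 other rows at its locus. Its partner Sel1l was at 13.5 FPKM in both genotypes, and the mannose-trimming factor Edem1 at 38.0 FPKM in Pim1 knockout and 33.8 FPKM in wild type (adjusted p = 0.997 and 0.491 per the authors' deposited table). Herpud1, an induced scaffold of the ligase, was at 40.9 FPKM in Pim1 knockout and 44.5 FPKM in wild type (adjusted p = 0.681 per the authors' deposited table).

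The wider pathway lists held few calls. Of 117 tested genes on 8 lists outside the members, 7 were higher (5.98%) and 4 lower (3.42%), against 6.79% and 6.73% of all tested genes, with a median log2 fold change of 0.05. Of 11 further cytosolic tRNA synthetases 1 was higher and 0 lower (2 and 0 at an unadjusted p under 0.05), with a median of 0.07. It was Vars, for valine, which lies within 10 Mb of Pim1 and rose to 14.3 FPKM in Pim1 knockout, against 9.87 FPKM in wild type (adjusted p = 0.00156 per the authors' deposited table). Of 17 mitochondrial tRNA synthetases 0 were called and 0 had an unadjusted p under 0.05, with a median of -0.01. Medians of the synthetase lists thus ran from 0.18 for those of the members to -0.01 for the mitochondrial ones, and their difference was not tested.

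Of 19 tested other ATF4 targets and partners 2 were higher and 2 lower (10.5% each), against 6.79% and 6.73% of all tested genes. At an unadjusted p under 0.05, 5 were higher and 2 lower, against 12% and 12.1%. The median log2 fold change of this list was -0.03. Gdf15, a stress-induced hormone, rose to 24.2 FPKM in Pim1 knockout, against 17.2 FPKM in wild type (adjusted p = 0.0288 per the authors' deposited table). Slc7a5, the carrier of large neutral amino acids, rose to 5.17 FPKM in Pim1 knockout, against 3.71 FPKM in wild type (adjusted p = 0.0387 per the authors' deposited table). Slc7a11, the cystine carrier that NRF2 also induces, fell to 2.77 FPKM in Pim1 knockout, against 5.52 FPKM in wild type (error 0.26 on the log2 scale, adjusted p = 0.000831 per the authors' deposited table). Gadd45a, a growth arrest gene, fell to 10.1 FPKM in Pim1 knockout, against 23.7 FPKM in wild type (log2 fold change -1.22, error 0.31, adjusted p = 0.000831 per the authors' deposited table). Another row shares the locus of Gadd45a. Of these 4 genes the falls of Slc7a11 and Gadd45a were also called with the statistic taken as standard normal. Among further eIF2alpha kinases and the phosphatase 1 of 6 was higher and 0 lower (1 and 0 at an unadjusted p under 0.05). It was Eif2ak2 (PKR), the interferon-induced sensor of double-stranded RNA, at 7.41 FPKM in Pim1 knockout and 3.99 FPKM in wild type (log2 fold change 0.89, error 0.28, adjusted p = 0.000831 per the authors' deposited table).

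Of 21 tested other ER folding genes 2 were higher and 2 lower (9.52% each), against 6.79% and 6.73% of all tested genes. At an unadjusted p under 0.05, 5 were higher and 3 lower, against 12% and 12.1%. The median log2 fold change of this list was 0.01. Serp1, which protects newly made membrane proteins, rose to 405 FPKM in Pim1 knockout, against 238 FPKM in wild type (1.70-fold, adjusted p = 0.000831 per the authors' deposited table), and shares its locus with 1 other row. Fkbp2, an ER prolyl isomerase, rose to 195 FPKM in Pim1 knockout, against 148 FPKM in wild type (adjusted p = 0.0318 per the authors' deposited table). Fkbp11, another ER prolyl isomerase, fell to 47.9 FPKM in Pim1 knockout, against 86.8 FPKM in wild type (log2 fold change -0.86, error 0.26, adjusted p = 0.000831 per the authors' deposited table). Ero1l, the oxidase that recharges disulfide isomerases and is also induced by hypoxia, fell to 41.1 FPKM in Pim1 knockout, against 60.9 FPKM in wild type (log2 fold change -0.57, error 0.24, adjusted p = 0.000831 per the authors' deposited table). Of 16 further degradation genes 1 was higher and 0 lower (4 and 1 at an unadjusted p under 0.05). It was Ube2g2, a ubiquitin-conjugating enzyme, at 39.9 FPKM in Pim1 knockout and 28.8 FPKM in wild type (adjusted p = 0.0136 per the authors' deposited table), which shares its locus with 1 other row. Of 19 tested ER translocation genes and 8 tested further stress transducers 0 were called, with 1 higher and 1 lower, and 0 higher and 2 lower, at an unadjusted p under 0.05.

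**Figure D4:**
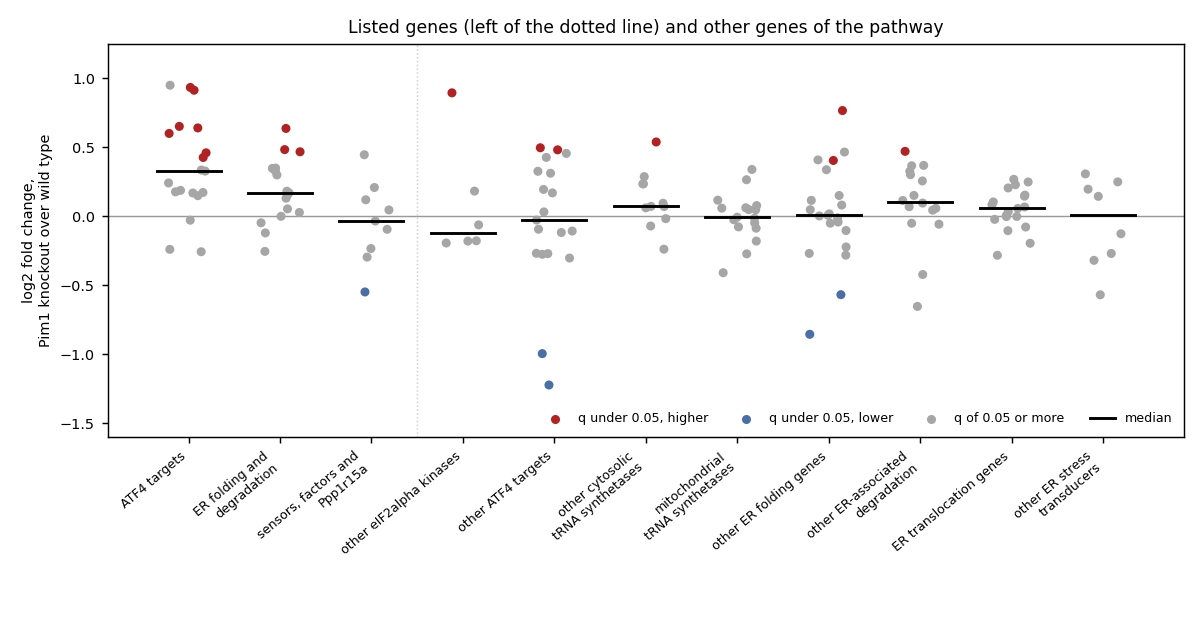
Log2 fold change, Pim1 knockout over wild type, of the members in 3 branches (left of the dotted line) and of 8 further pathway lists, 1 point per tested gene, with black lines at the medians. Red points are higher and blue points lower at an adjusted p under 0.05, and the ATF4 targets have the highest median among those plotted, 0.33, which was 0.18 with only genes of a mean of at least 10 FPKM and 0.17 at a pseudocount of 5.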

How the data were processed

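RNA of mouse bone-marrow-derived myeloid-derived suppressor cells was sequenced in 3 Pim1 knockout and 3 wild-type libraries, prepared by a Smart-seq2 protocol per the labels' protocols. The authors' deposited table gives 1 pooled expression value per gene and genotype, read here as FPKM from the column layout, since the header names no unit. Per the file headers each gene also has a p-value, a q-value and a test statistic, a signed score. The aligner, annotation, program and scaling are not stated in the labels or headers, and the submitters' processing notes name mm10. The coordinates of the deposited rows look unlike that build, so none of them are printed. Shared loci and the distance to Pim1 were read from those coordinates alone. Depth per library is unknown.

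The planned limma fit, leaving out of libraries and the pairing of replicates need values per library, so a gene is called where its deposited q-value, printed as an adjusted p, is under 0.05. These q-values equalled a Benjamini-Hochberg adjustment over the 11079 tested rows within 5.28e-07. Log2 fold changes were computed from the deposited FPKM values and differed from the deposited ones by at most 1.29e-05. The error printed is the ratio of the log2 fold change to the deposited statistic. As standard normal values, the deposited p-values are 1.74 times that statistic (5th to 95th percentile 1.69 to 1.78), so they rest on a narrower error than the one printed. The error measures no spread that can be seen here, because libraries were pooled.

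The members and lists were chosen with earlier results of these data known. Named besides the members were Pim1 and up to 6 called genes of each further pathway list. The plan was also to name the 2 most abundant genes of each marker list. Of these Itgam, Ly6c2, S100a8, S100a9, Bst2, Tcf4, Sdc1 and Irf4 are named, and most marker lists are given as counts and sums. The other neutrophil, plasmacytoid dendritic cell, and B and plasma cell markers named lie outside that plan. Y-linked genes, Eif2s3x and the 11 genes outside the list with an ER stress element were added after their values were seen. Alternatives were the test statistic taken as standard normal, an adjusted p under 0.01, a mean FPKM of at least 10, pseudocounts of 1 and 5, and scaling on the median or the sum. Promoter windows and coordinates are those of RefSeq on GRCm38.p6. Retention signals of proteins were planned but not analysed here. The adjustment was tested on simulated data. Software was scipy 1.17.1, numpy 2.4.6, pandas 2.3.3 and matplotlib 3.10.9 under Python 3.11.15.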

Additional observations from a re-analysis of the deposited data

How the results depend on the processing

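The calls rest on the step from the deposited statistic to a p-value. Taken as standard normal and adjusted over all tested genes, it called 0 members higher and 0 lower (7 higher and 0 lower at an unadjusted p under 0.05 on that reading), 0 ATF4 targets and 0 ER folding and degradation genes. The same reading called 1 of the other pathway genes higher and 3 lower, against 7 higher and 4 lower as deposited. At an adjusted p under 0.01 the counts were 6 members higher and 0 lower, 1 ER folding and degradation gene higher, and 3 other pathway genes higher and 4 lower. With only genes of a mean FPKM of at least 10, adjusted again, 5 members were called higher, 3 of them ATF4 targets, and 0 lower. Asns, Trib3, Sesn2, Hyou1, Aldh18a1 and Cebpg have means under 10 and left the count by construction. The median of Asns and Aldh18a1 was 0.39 on the log2 scale at a pseudocount of 5, against 0.70 as deposited. The median of the ATF4 targets was 0.18 with only genes of a mean of at least 10 FPKM and 0.17 at a pseudocount of 5, against 0.33 as deposited. The median of the ER branch was 0.16 and 0.15 there, against 0.17 as deposited. Restricting the list to genes with a locus of their own, an alternative chosen after seeing the data, left the counts of members called at 10 higher and 1 lower. No paired analysis was possible because the deposited table pools the 3 libraries of a genotype, and for that reason no library could be left out. Depth and counting error could not be assessed.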

Other observations

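The sequence elements can also be used to group genes regardless of function. Of the 8447 tested genes with a promoter window, 236 outside the list held the ATF4 and C/EBP composite element, of which Pim1 knockout had 25 higher (10.6%) and 18 lower (7.63%). Over all tested genes with a window 6.63% were higher and 6.64% lower. The median log2 fold change of the 236 genes was 0.03, against 0.02 over all genes with a window. The core element of XBP1 and ATF6 was held by 280 genes outside the list, of which 10 (3.57%) were higher and 20 (7.14%) lower, with a median of 0.02. These shares were not tested.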
